A study of Mus musculus with 14 samples.

Results

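The genes described here are those that encode the mitochondrial translation machinery's ribosomal proteins and the proteins that this machinery makes. They comprised every measured gene with a symbol beginning Mrpl (49 genes) or Mrps (29 genes), the nuclear genes of mitoribosomal proteins, and the 13 protein genes of the mitochondrial genome (ND1 to ND6, ND4L, COX1 to COX3, ATP6, ATP8 and CYTB). All 91 were taken by name, by a rule that uses no measured value, and all 91 were measured on both days, among 15108 genes at day 5 (D5), 15744 at day 10 (D10) and 16060 on either day. RefSeq lists 84 Mrpl and Mrps genes in the mouse. Its 78 protein-coding genes are the 78 described here, and the other 6 are pseudogenes with no row in the data.

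The libraries came from mouse embryonic stem cells of the GLI1-FTA line (strain A2Lox.cre, in which a transgene sits at one landing site and is switched on by doxycycline). The cells were differentiated in culture toward neural cells. In the induced groups, 500 ng/ml doxycycline was present for 48 h, from day 3 to day 5, and was then washed out. In the control groups the same cells were left untreated. There were 4 induced and 4 control libraries at D5, when the cells are labelled neural progenitors, and 3 induced and 3 control libraries at D10, when they are labelled immature neurons. GLI1 is a transcription factor of the Hedgehog pathway that can switch on many of the pathway's target genes. Because no control group received doxycycline, the drug and GLI1 cannot be told apart in any value below. The labels name 1 line and nothing in them shows that replicates came from separate cultures, so the p-values measure the spread between these libraries, which may be technical.

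The sources used here give the authors' comparison of induced with control libraries on each day and no value per library, so the values of single samples, the overlap of the groups and the depth per library are unknown. In the authors' deposited table, induced cells had 27.8-fold more Gli1 at D5 (log2 fold change 4.79, implied SE 0.25, adjusted p = 1.12e-81), and the log2 fold change was 0.57 at D10 (implied interval 0.22 to 0.92, p = 0.00161, adjusted p = 0.780). With the rescaling of z described below, the adjusted p of Gli1 at D10, computed from the authors' deposited table, was 0.000219. All 8 neural progenitor markers looked up had an average log2 CPM (read counts scaled to a common library total) of 6.04 to 9.08 at D5, and all 8 neuron markers lay at 3.58 to 9.11 at D10. Markers of other cells were present too: those of surface epithelium reached 6.88 at D5 and 9.04 at D10, and those of endoderm 8.36 and 7.48. Neuron markers reached 7.72 at D5. Between the D5 groups, 9 of the 40 markers measured had an adjusted p under 0.05 in the authors' deposited table, as did 4.44% of all genes. Foxa2 and T were higher, and Stmn2, Tubb3, Dppa5a, Gata4, Gata6, Cdh1 and Epcam were lower in induced cells. Whether these changes come from cell makeup or from regulation of the marker genes themselves was not tested. Neither was the part of any difference in cell makeup in the values below.

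Mitochondria keep a small genome of their own, whose protein genes all encode core subunits of the respiratory chain complexes and of ATP synthase. These mRNAs are read by the mitoribosome, which joins rRNAs encoded in that same genome to proteins encoded in the nucleus and imported. The mitoribosome descends from a bacterial ribosome, and doxycycline, a tetracycline that blocks the small subunit of bacterial ribosomes, is known to inhibit it too. RNA levels do not measure that inhibition, which acts on protein synthesis. In neural cells, mitochondrial respiration is known to gain in weight as progenitors become neurons.

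Most of the mitochondrial genome is transcribed as long precursors, and neighbouring genes can share bases, which matters for how short reads are assigned to them. ATP8 and ATP6 lie on the same strand and share 43 bases, ND4L and ND4 share 7, and ATP6 and COX3 share 1. ND5 and ND6 share 14 bases on opposite strands. ND6 is the single protein gene on the minus strand, and the other 12 are on the plus strand. The coding sequence of ATP8 (chrM:7766-7969, plus strand) and the stretch around the ND4L to ND4 junction (chrM:10107-10233, plus strand) are shown because reads that reach into the shared bases, in capitals, cover parts of both genes. Both are from GENCODE M21 on build GRCm38, 5′ to 3′.
ATP8: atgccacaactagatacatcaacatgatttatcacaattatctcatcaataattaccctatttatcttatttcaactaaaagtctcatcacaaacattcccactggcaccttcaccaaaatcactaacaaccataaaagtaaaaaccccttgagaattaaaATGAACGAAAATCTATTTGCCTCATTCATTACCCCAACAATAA
ND4L to ND4: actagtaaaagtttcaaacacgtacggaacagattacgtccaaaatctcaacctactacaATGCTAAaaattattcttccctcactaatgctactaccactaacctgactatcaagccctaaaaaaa
Reads were 50 bases long, so no read fits wholly inside the 43 bases that ATP8 and ATP6 share, and a read that touches them also covers bases of at least 1 of the genes alone. No source used here states how the authors assigned such reads, or whether strand was used in counting. The labels call the reads stranded, but the kit they name does not mark strand. The values of ATP8 and ATP6, of ND4L and ND4, and of ND5 and ND6 are therefore uncertain as separate measurements. ATP8 and ATP6 are also known to be carried on a shared mRNA, and so are ND4L and ND4. What is called an mRNA below is therefore counted by protein gene, and both genes of each such pair enter the counts.

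No member had an adjusted p under 0.05, the threshold used here, on either day. At D5, 0 of 91 members had an adjusted p under 0.05 in the authors' deposited table, where 671 of 15108 genes passed (4.44%). At an unadjusted p under 0.05 there were 3 of 91 members, all from the mitochondrial genome and all higher in induced cells, where 10.7% of all genes reached it. At D10, 0 of 91 members had an adjusted p under 0.05, and 0 of 91 an unadjusted p under 0.05. The shares of all genes in the authors' deposited table were 0.0826% and 1.53%. Those shares are so small that finding 0 members at D10 says little about them. The members' median log2 fold change was -0.0022 at D5 and -0.010 at D10, beside medians of 0.0015 and 0.0027 over all genes. In bulk RNA, fewer cells of a type and less RNA per cell cannot be told apart, and neither can more cells and more RNA per cell.

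How large a change these data leave room for was read from an interval computed for each gene. The authors' p-value and log2 fold change give an implied standard error (SE), and 1.96 times this SE on either side gives an implied 95% interval. At D5, 89 of 91 members had an interval that lay inside 0.5 on the log2 scale on both sides of 0, which is a change of 1.41-fold. The exceptions were ND3, whose interval ran from 0.11 to 0.74, and Mrpl2, whose change was too close to 0 to give an interval. At D10, 84 of 91 members had an interval inside that band, all 13 genes of the mitochondrial genome among them. Of the 78 Mrpl and Mrps genes, 98.7% had such an interval at D5 and 91.0% at D10, beside 84.3% and 85.9% of all genes in their range of read abundance. Of the 13 mitochondrial mRNAs, 92.3% did at D5, beside 93.7% of all genes with at least the lowest of their levels.

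Among the 13 mRNAs of the mitochondrial genome, the log2 fold changes at D5 ran from -0.011 to 0.43, with a median of 0.17 and 9 of 13 above 0. Of the 319 genes with at least the lowest of their levels at D5, 52.4% lay above 0 (median 0.0015), beside 50.5% of all genes. As the plot of the 13 mRNAs shows, 7 ran from 0.17 (ATP6) to 0.43 (ND3) after rounding and 6 from -0.011 (COX1) to 0.09 (COX2). Higher and lower genes are interleaved along the genome. This split was drawn at a gap seen in the values. Implied intervals overlap across it, as for ATP6 (-0.028 to 0.37) and COX2 (-0.11 to 0.29). Of the complex I genes, ND3 had the largest value of all members, a log2 fold change of 0.43 in the authors' deposited table (implied SE 0.16, p = 0.00781, adjusted p = 0.131). ND2 followed with 0.21 in the authors' deposited table (implied SE 0.10, p = 0.0444, adjusted p = 0.438). ND4 and ND4L, which share bases, both had 0.18 in the authors' deposited table (p = 0.0804 and 0.0882). ND1 had 0.010, ND5 -0.0022 and ND6 -0.0025, each with a p of 0.916 or more in the authors' deposited table. So 4 of the 7 complex I genes ran from 0.18 to 0.43 after rounding, with ND4 and ND4L of a shared mRNA among them. The other 3 lay between -0.0025 and 0.010, while all 7 encode subunits of a single complex.

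CYTB, the cytochrome b of complex III, had a log2 fold change of 0.24 in the authors' deposited table (implied SE 0.10, p = 0.0187, adjusted p = 0.247). The overlapping ATP synthase genes were alike, at 0.20 for ATP8 and 0.17 for ATP6 in the authors' deposited table (p = 0.0735 and 0.0929). The 3 core subunits of cytochrome c oxidase (complex IV) lay lower. COX2 had 0.09, COX3 -0.0031 and COX1, its catalytic subunit, -0.011 in the authors' deposited table (p = 0.375 for COX2, 0.978 for COX3 and 0.918 for COX1). The implied interval of COX1 ran from -0.21 to 0.19 and excludes a change as large as the 0.43 of ND3 in either direction. The implied interval of ND3 itself, 0.11 to 0.74, overlaps that of COX1, and whether the genes differ from each other was not tested.

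**Figure D1:**
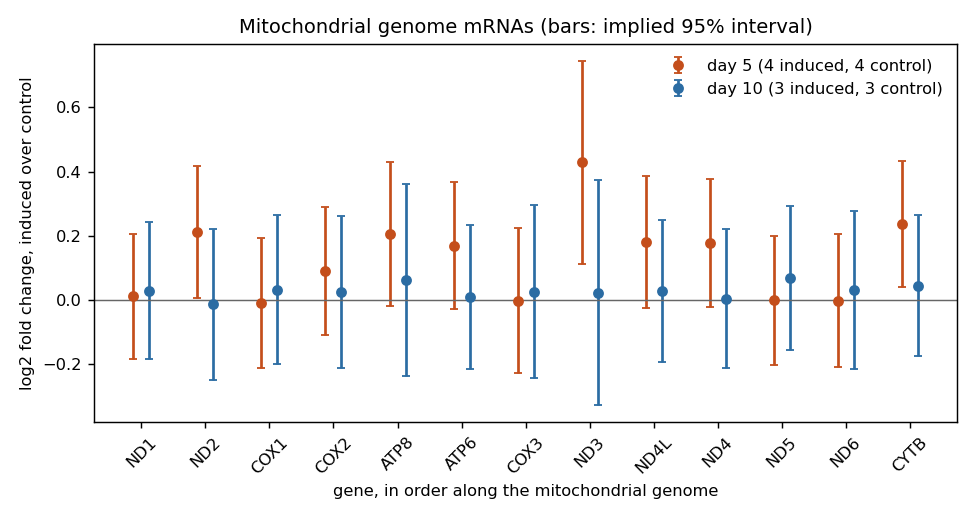
Log2 fold change of induced over control (vertical axis) for the 13 protein genes in genome order, with implied 95% intervals, at D5 (orange, 4 against 4 libraries) and D10 (blue, 3 against 3). At D5 the values run from -0.011 to 0.43 with ND3 highest, and at D10 all lie between -0.015 and 0.068.

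At D10, 5 days after washout, the same 13 mRNAs lay close together. Their log2 fold changes in the authors' deposited table ran from -0.015 (ND2) to 0.068 (ND5). Their median was 0.027, and each had a p of 0.555 or more in the authors' deposited table. Of the 13, 12 were above 0, but none by more than its own implied SE. Of the 274 genes with at least the lowest of their levels at D10, 32.5% lay above 0 (median -0.021), beside 51.1% of all genes. ND3 stood at 0.022 (implied interval -0.33 to 0.37), CYTB at 0.044 and ATP8 at 0.062 in the authors' deposited table.

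The genome's 2 rRNA genes, which are no members, are described because they are transcribed with these mRNAs and form the core of the mitoribosome. The large-subunit rRNA mt-Rnr2 was at -0.17 at D5 (p = 0.118) and -0.09 at D10 (p = 0.449) in the authors' deposited table, on the other side of 0 from most of the mRNAs. For the small-subunit rRNA mt-Rnr1 the authors' deposited table gives 0.0080 at D5 (p = 0.962) and -0.17 at D10 (p = 0.212). The libraries were selected for poly(A) RNA, so the rRNA values come from what passed that selection. The same holds for the mitochondrial mRNAs, ND6 among them, and how well each passed is unknown.

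The number of mitochondrial mRNAs called at D5 turned on how the p-values were scaled. At high read abundance the authors' p-values were larger than a standard normal z would give if most genes were unchanged. All 13 mitochondrial mRNAs lay among the 503 genes with the most reads at D5, where the typical size of z was 0.53 times that of a standard normal. When z was rescaled within bins of about 500 genes by read abundance, 7 of 91 members passed an adjusted p of 0.05, where 773 of 15108 genes passed (5.12%). Computed from the authors' deposited table, they were ND3 (rescaled adjusted p = 3.51e-05), CYTB (0.000445), ND2 (0.0050), ATP8 (0.0190), ND4 (0.0235), ND4L (0.0299) and ATP6 (0.0339), all higher in induced cells. In that bin of 503 genes, 37 passed (7.36%), 15 higher and 22 lower, and the 7 mitochondrial mRNAs were among the 15. The rescaled adjusted p of mt-Rnr2, which was lower, was 0.0604. On that scale no Mrpl or Mrps gene passed, the smallest adjusted p computed from the authors' deposited table being 0.547. At D10 the rescaling called 0 of 91 members, where 119 genes passed (0.756%). The rescaling takes most genes of like read abundance as unchanged, and these mRNAs share precursors and libraries, so their values are not independent of each other. Both pairs of genes on a shared mRNA, ATP8 with ATP6 and ND4L with ND4, are among the 7.

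Whether the change differed between the days was tested from the implied SEs, with Benjamini-Hochberg adjustment over the 14792 genes measured on both days. No member passed (0 of 91, where 183 genes or 1.24% of all did), and 0 of 91 had an unadjusted p under 0.05 (4.91% of all). The largest difference computed from the authors' deposited table was that of ND3, which was 0.41 lower at D10 than at D5 on the log2 scale (implied interval of the difference -0.88 to 0.065, unadjusted p = 0.0914). With z rescaled from the authors' deposited table, 1 member passed, ND3 (adjusted p = 0.0239), where 361 genes passed (2.44%).

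The 78 Mrpl and Mrps genes lay in a narrow band around 0 on both days. The authors' deposited table for D5 gives log2 fold changes from -0.21 to 0.19, a median of -0.011, and 34 genes above 0 and 44 below. The authors' deposited table for D10 gives values from -0.19 to 0.19, a median of -0.023, and 26 genes above 0 and 52 below. No gene of the 78 had an unadjusted p under 0.05 on either day. Their p-values in the authors' deposited table were 0.103 (Mrpl40) or more at D5 and 0.252 (Mrpl46) or more at D10.

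The large subunit holds the centre where peptide bonds form, and the small subunit, the part that doxycycline is known to bind in bacteria, holds the mRNA. Sorted by the subunit the protein sits in, which for Mrps18a and Mrps30 is the large one, the 51 large-subunit proteins had a median log2 fold change of -0.014 at D5 and -0.020 at D10. The 26 small-subunit proteins had medians of 0.0049 and -0.042. Mrps36 was left out of this sorting, since its product is known as a component of the 2-oxoglutarate dehydrogenase complex in spite of its name. At D10, 19 of 26 small-subunit and 32 of 51 large-subunit genes lay below 0. Proteins sorted as having a bacterial counterpart (44 genes) and the others (33 genes) had medians of -0.016 and -0.0036 at D5, and of -0.023 and -0.020 at D10. This sorting is approximate, since the 33 include Mrpl47 and Mrps28, whose products are known to have bacterial counterparts. Of the 6905 genes of like read abundance at D10, 52.1% lay above 0, with a median of 0.0050. These counts and medians are a description, as no test of a list was made.

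In the large subunit at D5, the lowest p-values among genes below 0 were those of Mrpl40 (-0.17, implied interval -0.38 to 0.035) and Mrpl21 (-0.21, implied interval -0.47 to 0.044), on the log2 scale of the authors' deposited table. Mrpl32, a counterpart of bacterial L32 whose maturation by a mitochondrial protease is known as a step of ribosome assembly, had -0.20, and Mrpl49 had -0.11 in the authors' deposited table. On the other side of 0 stood Mrpl52 (0.19, implied interval -0.11 to 0.49), Mrpl34 (0.15), Mrpl41 (0.12), Mrpl53 (0.10) and Mrpl19 (0.08), per the authors' deposited table. Of the small subunit, Mrps35 had the lowest p at D5, at -0.14 in the authors' deposited table (p = 0.184). Every one of these intervals holds 0.

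At D10 other genes stood at the ends. Mrpl46 (0.18, implied interval -0.13 to 0.48), Mrpl33 (0.18), Mrpl13 (0.11) and, of the small subunit, Mrps18c (0.19, implied interval -0.16 to 0.54) and Mrps27 (0.11), a protein with pentatricopeptide repeats, were highest by p-value in the authors' deposited table. Mrps36 (-0.19, implied interval -0.52 to 0.15), Mrps12 (-0.14), Mrps18b (-0.12), Mrps11 (-0.11) and Mrps6 (-0.10) stood on the low side of the authors' deposited table. Mrps12 is the counterpart of bacterial S12, a protein of the decoding centre. It had 0.06 at D5 in the authors' deposited table. The sign was the same on both days for 42 of the 78 genes, and for 8683 of the 14792 genes in both tables.

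Mrpl21, Mrpl46, Mrpl32, Mrpl33 and Mrpl52 had the smallest p of the difference between days among the nuclear genes. In values computed from the authors' deposited table, Mrpl21 went from -0.21 at D5 to 0.11 at D10 (difference 0.32, implied interval -0.071 to 0.71, unadjusted p = 0.109). From the authors' deposited table, Mrpl46 went from -0.11 to 0.18 (difference 0.29, unadjusted p = 0.156) and Mrpl32 from -0.20 to 0.07 (difference 0.27, unadjusted p = 0.190). Mrpl33 differed by 0.22 in the same direction, and Mrpl52 by -0.19.

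**Figure D2:**
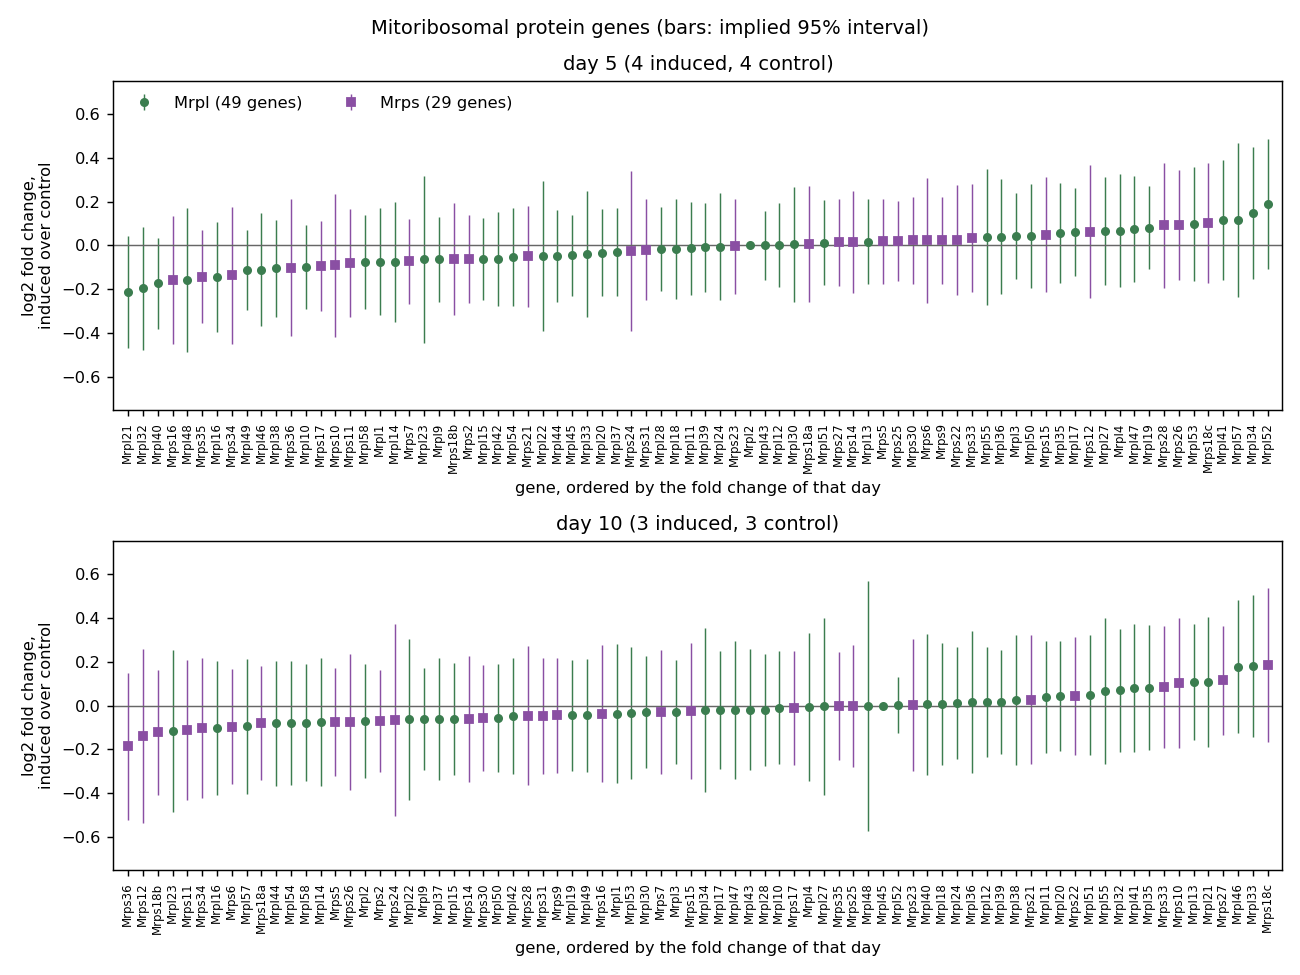
Log2 fold change of induced over control (vertical axis) for the 49 Mrpl (green circles) and 29 Mrps genes (purple squares), ordered by value, at D5 (top) and D10 (bottom), with implied 95% intervals. Values run from -0.21 to 0.19 at D5 and from -0.19 to 0.19 at D10, and all intervals drawn cross 0; Mrpl2 at D5 and Mrpl45 at D10 have none.

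The members differed widely in read abundance. The 13 mitochondrial mRNAs took 3.38% of all CPM at D5 and 4.29% at D10, averaged over the induced and control libraries of a day, while the 78 Mrpl and Mrps genes together took 0.224% and 0.194%. The average log2 CPM of the mitochondrial mRNAs ran from 8.66 to 13.1 at D5, and that of the Mrpl and Mrps genes from 3.14 to 5.97. Genes of at least the lowest of those mitochondrial levels numbered 319 at D5, of which 17 had an unadjusted p under 0.05 in the authors' deposited table, 5 higher and 12 lower. The 3 mitochondrial mRNAs under that p are among the 5.

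**Figure D3:**
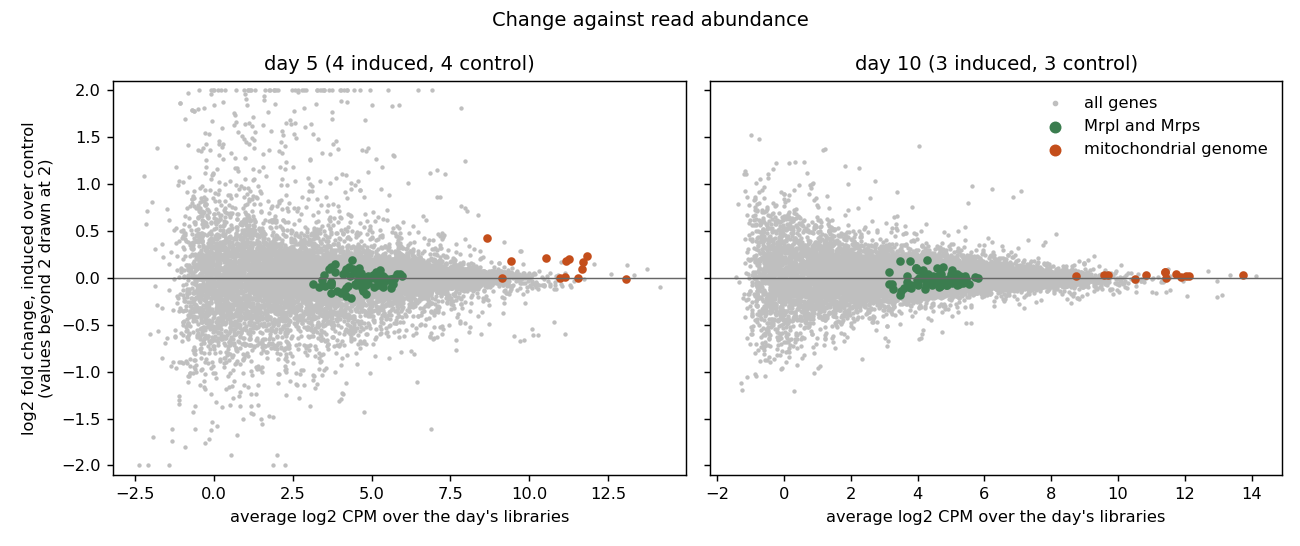
Log2 fold change of induced over control (vertical axis) against average log2 CPM (horizontal axis) at D5 (left) and D10 (right) for all genes (grey), Mrpl and Mrps genes (green) and mitochondrial mRNAs (orange); values beyond 2 are drawn at 2. The nuclear members lie between -0.21 and 0.19 on both days, and the mitochondrial mRNAs are spread from -0.011 to 0.43 at D5 and lie between -0.015 and 0.068 at D10.

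Per kilobase of coding length, ATP8 had the highest level of the 13 on both days, with a log2 CPM per kilobase of 13.5 at D5 and 13.7 at D10. COX1 came next at 12.4 and 13.1 on that scale. At D5 the order went on with ATP6 (12.3), COX2 (12.2), COX3 (11.9), CYTB (11.6), ND1 and ND4L (both 11.2), ND4 (10.7), ND2 (10.5), ND3 (10.2), ND5 (10.1) and ND6 (10.1). The subunits of complex IV and ATP synthase thus filled the upper 5 places and the complex I subunits the lower 7. At D10 the upper 5 places held the same genes, and ND3 was last with 10.2. ATP8 is only 204 bases long and shares 43 of them with ATP6, so its place can depend on how shared reads were counted. The spread of these levels over libraries is not known, so neighbours in this order cannot be said to differ. All are levels of RNA that passed the poly(A) selection, which may not have kept each mRNA equally.

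From D5 to D10 the average levels of most mitochondrial and most nuclear members differed in opposite directions. Each day was normalised separately, so these differences were not tested. Among the mitochondrial mRNAs, 10 of 13 had a higher average log2 CPM at D10, with a median difference of 0.18 and a range of -0.30 to 0.67. COX1 (0.67), COX3 (0.59), ND6 (0.55) and ND5 (0.46) differed most upward, and ND1 (-0.30), CYTB (-0.09) and ND2 (-0.0055) were lower at D10. Of the 78 Mrpl and Mrps genes, 59 had a lower average at D10, with a median difference of -0.22 and a range of -0.72 (Mrpl13) to 0.57 (Mrpl24). Of the 14792 genes measured on both days, 7342 were lower at D10, with a median difference of 0.0053. Several other nuclear lists, described below, were also mostly lower at D10. The medians were -0.37 for tRNA synthetases (17 of 20 lower) and -0.28 for assembly and rRNA modification (22 of 32). They were -0.27 for DNA and RNA factors (28 of 36), -0.23 for translation factors (12 of 18) and -0.15 for import (22 of 31). Nuclear subunits of complex I stood at a median of 0.08, with 24 of 36 higher at D10, and those of complexes II to V at -0.030. Mrps25, Mrpl3 and Mrpl50 had the most reads of the nuclear members at D5 and Mrps25, Mrpl24 and Mrpl15 at D10, which is no order of RNA levels because their lengths differ.

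**Figure D4:**
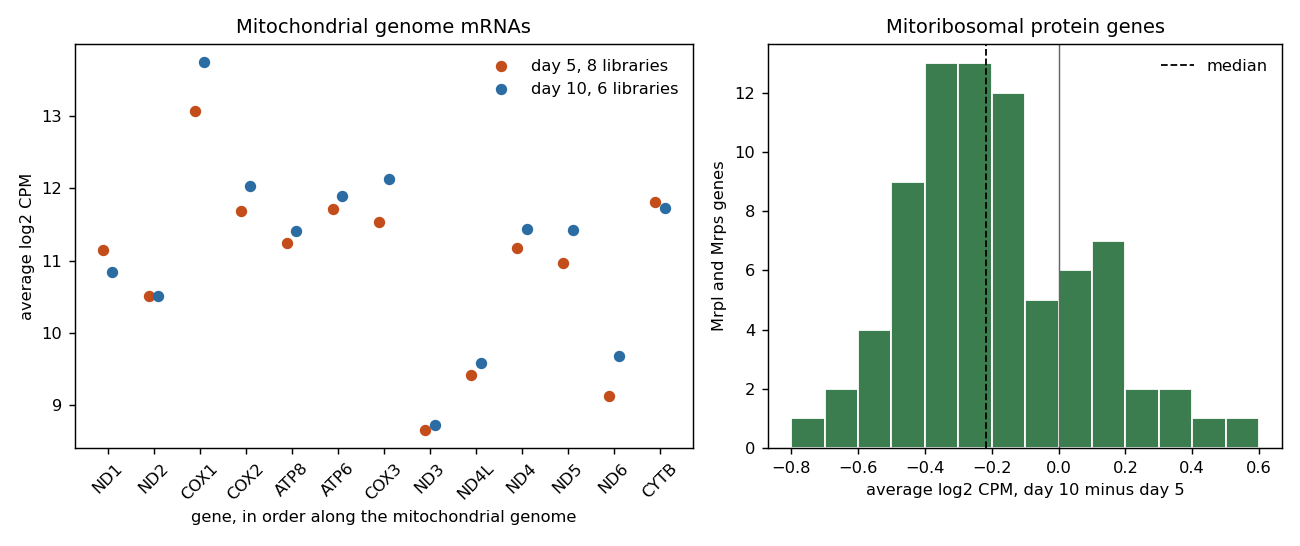
Left: average log2 CPM (vertical axis) of the 13 mitochondrial mRNAs in genome order at D5 (orange, 8 libraries) and D10 (blue, 6 libraries). Right: number of Mrpl and Mrps genes (vertical axis) by the difference of average log2 CPM, D10 minus D5, with a dashed line at the median of -0.22; 59 of 78 lie below 0.

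The promoters of the nuclear members were examined for what they share in sequence. Genes for mitochondrial proteins are known targets of NRF1 (nuclear respiratory factor 1), of ETS factors such as GABP, and of YY1. RefSeq promoter windows of GRCm38.p6, from 250 bases before to 50 after the start, were found for 69 of the 78 genes (75 windows). The letters GCGCATGCG, a core of the NRF1 motif, were in 7 of 75 windows on either strand (9.33%), and in 3.44% of the 13725 windows of genes in both tables. The letters AAGATGGCG, a core of the YY1 motif, were in 8 of 75 (10.7%, beside 2.78%), and CCGGAAGTG, a core of the ETS motif, in 4 of 75 (5.33%, beside 4.05%). At least 1 of the 3 was in 18 of 75 windows (24%, beside 9.78%). The GLI core GACCACCCA was in 0 of 75 and in 0.197% of the windows of genes in both tables. A match describes letters and shows no binding, and no match says only that these letters are not in the window.

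Both promoters below show such matches in capitals, on either strand, within the 250 bases before the start, read 5′ to 3′ on the gene's strand. That of Mrpl32 (chr13:14613038-14613287, minus strand) holds 3 NRF1 matches, 2 of them overlapping. That of Mrps11 (chr7:78782881-78783130, plus strand) holds a YY1 match and faces Mrpl46, whose window on the opposite strand shares 141 bases with the window of Mrps11.
Mrpl32: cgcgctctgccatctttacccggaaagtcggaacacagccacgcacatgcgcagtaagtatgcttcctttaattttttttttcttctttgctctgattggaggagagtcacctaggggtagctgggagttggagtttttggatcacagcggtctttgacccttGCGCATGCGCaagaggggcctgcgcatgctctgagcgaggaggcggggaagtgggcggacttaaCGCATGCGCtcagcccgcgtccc
Mrps11: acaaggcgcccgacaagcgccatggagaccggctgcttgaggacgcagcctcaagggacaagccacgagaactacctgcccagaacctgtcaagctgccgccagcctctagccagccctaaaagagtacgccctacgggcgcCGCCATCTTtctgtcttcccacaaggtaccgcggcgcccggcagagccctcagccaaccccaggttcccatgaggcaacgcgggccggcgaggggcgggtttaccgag
In expression, the values of Mrpl32 were -0.20 at D5 and 0.07 at D10 in the authors' deposited table. Of the facing pair, Mrps11 had -0.08 at D5 and -0.11 at D10, and Mrpl46 had -0.11 and 0.18, in the authors' deposited table. None of these 6 values passed the test.

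The other genes needed for mitochondrial translation and respiration were looked up in 9 lists of 5 to 42 measured genes each. None of their measured genes had an adjusted p under 0.05 on either day in the authors' deposited table, and 1 gene in all had an unadjusted p under 0.05. Over all genes the shares were 4.44% and 10.7% at D5, and 0.0826% and 1.53% at D10. The share at the adjusted p was so small at D10 that finding none there says little about these lists. The gene at an unadjusted p under 0.05 was Atf3, a stress-induced transcription factor, at -0.58 at D5 in the authors' deposited table (p = 0.00984, adjusted p = 0.156) and -0.10 at D10.

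Of the 5 mitoribosomal proteins that carry other names, 5 lay below 0 at D5, with a median of -0.028 and the lowest p for Dap3 (-0.05) and Chchd1 (-0.029) in the authors' deposited table. At D10, 4 of the 5 lay above 0, with a median of 0.052. Ptcd3 and Gadd45gip1, also proteins of the mitoribosome, had 0.05 and 0.06 in the authors' deposited table. The 32 genes of mitoribosome assembly and rRNA modification had medians of -0.0096 at D5 and -0.011 at D10. In that list the smallest p belonged at D5 to the pseudouridine synthase family gene Rpusd4 (-0.18) and to Rmnd1 (0.13), and at D10 to the GTPase Mtg2 (0.27) and the rRNA methyltransferase Mrm1 (-0.25), in the authors' deposited table.

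Of 18 translation factors, 12 were above 0 at D5 (median 0.028) and 7 at D10 (median -0.012). Oxa1l, which inserts newly made subunits into the inner membrane, had 0.19 at D5 (p = 0.0530), and Pdf, the deformylase of new chains, had 0.22 in the authors' deposited table. The elongation factor gene Tsfm had -0.24 and the methionine aminopeptidase gene Metap1d 0.25 at D10 in the authors' deposited table. The 20 aminoacyl-tRNA synthetase and amidotransferase genes had medians of -0.0099 and -0.024. Ears2 (-0.24) and Pars2 (-0.14) had the smallest p at D5, and Wars2 (-0.20) and Fars2 (-0.21) at D10, in the authors' deposited table.

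Factors that copy, transcribe and process the mitochondrial genome bear most directly on the 13 mRNAs. Of 36 such genes at D5, 15 were above 0 (median -0.0065), and of 37 at D10, 19 were (median 0.0097). Mtpap, the mitochondrial poly(A) polymerase, had -0.18 (p = 0.0610) and the helicase gene Twnk -0.15 at D5 in the authors' deposited table. At D10, Mterf2 had 0.20 and Nrf1, whose product is the factor of the NRF1 motif, 0.11 in the authors' deposited table.

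The nuclear partners of the mitochondrial subunits were spread on both sides of 0. For 36 nuclear subunits of complex I the range was -0.14 to 0.12 at D5, and the medians were -0.011 at D5 and -0.0073 at D10, beside 0.18 and 0.027 for the 7 complex I mRNAs of the mitochondrial genome. Ndufa3 (-0.14) and Ndufa6 (0.11) had the smallest p at D5, and Ndufb5 (-0.11) and Ndufv3 (-0.14) at D10, in the authors' deposited table. For 42 nuclear subunits of complexes II to V the medians were -0.010 and -0.011. Cox6c (0.16) and Uqcr11 (-0.13) had the smallest p of that list at D5, and Atp5h (-0.11) and Cox7b (0.10) at D10, in the authors' deposited table.

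Inhibited mitochondrial translation is known to raise genes of the integrated stress response, such as those of serine and one-carbon metabolism, and mitochondrial chaperones. Of 33 genes in that list 31 were measured, of which 13 were above 0 at D5 (median -0.023) and 8 at D10 (median -0.034). Ddit4, a stress-induced inhibitor of mTOR, had 0.25 at D5 (p = 0.0706), and at D10 the folate enzyme gene Mthfd2 had -0.19 (p = 0.120) and the glutathione-degrading enzyme gene Chac1 -0.25 (p = 0.264) in the authors' deposited table. The 31 genes of protein import had medians of -0.032 and -0.024. Tomm5 (-0.13) and Timm23 (-0.10), components of the outer and inner membrane translocases, led the import list by p-value at D5 and Chchd4 (-0.24) and Grpel1 (-0.10) did at D10, in values of the authors' deposited table.

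**Figure D5:**
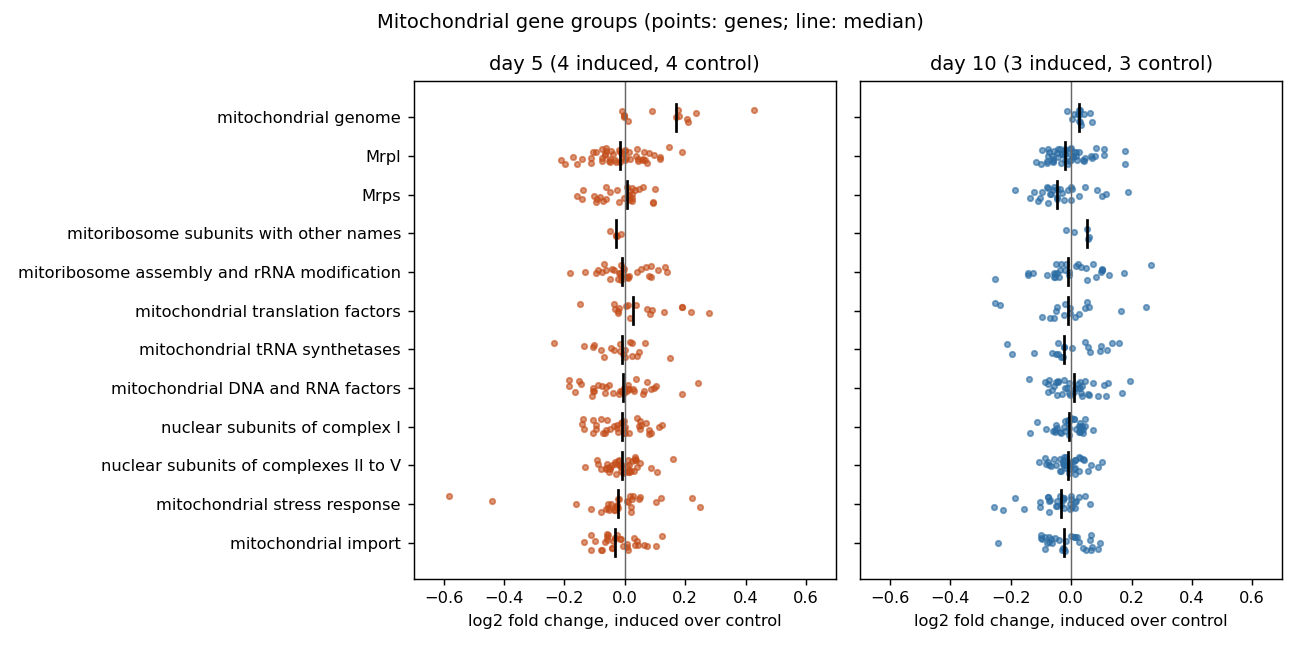
Log2 fold change of induced over control (horizontal axis) of each gene in the mitochondrial genome, Mrpl and Mrps groups and in 9 other mitochondrial lists (rows), at D5 (left) and D10 (right), with a line at each median. The mitochondrial genome's median of 0.17 at D5 lies farther from 0 than those of the Mrpl, Mrps and other lists, and Atf3 (-0.58) is the lowest point.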

How the data were processed

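The files hold the authors' comparisons of induced with control libraries, 1 for each day, and no value per library (14 libraries in all). Per the file headers, each row gives an Entrez gene's log fold change, average log CPM, p-value and FDR. The deposited average log CPM is on a log2 scale: its antilogs to base 2 add up to 1001543 (D5) and 1001340 (D10). Log2 was assumed for the fold change too, without a check. The authors' FDR equals a Benjamini-Hochberg adjustment of the deposited p-values, with largest differences of 2.72e-06 and 3.41e-05. Libraries were made from poly(A) RNA with a TruSeq RNA kit (v2) and read as single ends of 50 bases, according to the labels' protocols. The labels call the reads stranded, but that kit does not mark strand. The sources used here do not give the aligner, counting, filter, test or genome build.

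Symbols came from the RefSeq table of GRCm38.p6, which matched 94.6% of identifiers on both days. Coordinates are those of the printed build, not of the authors' counting. The implied SE is the size of the log2 fold change over the normal z of its p-value. It is no replicate SD, and is unstable where z is near 0. A gene is called at an adjusted p under 0.05. The difference between days is a two-sided normal test from the implied SEs. The alternative scaling sorted genes by read abundance into bins of about 500 and divided z in each by the factor that sets its median size to that of a standard normal. Coding lengths and overlaps came from GENCODE M21. The implied SEs, the day difference and the rescaling were run on simulated normal values. That checks their arithmetic, and not whether the rescaling calls too many genes in these data. Python 3.11.15, numpy 2.4.6, pandas 2.3.3, scipy 1.17.1 and matplotlib 3.10.9 were used.

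The members, gene lists, motifs, tests and rescaling were chosen with earlier results of these data known. Named genes are Gli1, the 13 mitochondrial mRNAs, the 5 Mrpl or Mrps genes of smallest p in each direction on each day and for the difference, the 3 with most reads on each day, and from each list the 2 of smallest p where none was called. Cell type markers that passed, mt-Rnr1, mt-Rnr2, Mrpl2 and Mrpl45 were named after their values were seen.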

Additional observations from a re-analysis of the deposited data

How the results depend on the processing

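The count of members called was 0 on each day also with an adjusted p under 0.1 and for genes with a log2 CPM of 1 or more. An adjusted p under 0.01, Holm's adjustment and a minimum log2 fold change of 0.5 can only lower a count, so their 0 says nothing of stability. The rescaling of z raised it to 7 at D5, and the count of members that differ between days to 1. The cause was not tested. For the day difference the count was 0 also under an adjusted p of 0.1, a t reference, the level minimum and recentring. The members' median log2 fold change at D5 (-0.0022) was -0.0037 after subtracting the median of all genes, and their weighted mean was 0.0032, on the other side of 0. At D10 the corresponding values were -0.010, -0.0127 and -0.0071. Recentring turned the sign of 0 members at D5 and of 2 at D10. No paired analysis was possible because the files hold no values per library, and for the same reason no replicate could be left out in turn. Depth per library is unknown, so what it limits is read from the implied intervals alone.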
